A study of Mus musculus with 14 samples.

Results

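Solute carriers are the membrane transporter genes of the Slc families, and their RNA was followed in the non-pregnant mouse uterus, at day 12 of pregnancy, and at day 12 after an antibody against CD25. A gene was counted when its symbol was Slc, a number, the letter a and a number, and when it had a probe in the authors' matrix of values. The mitochondrial Slc25 family (30 genes) and 5 symbols that only resemble the pattern were left out. This gave 159 of the 10544 named genes, of which 157 were bright enough to test. Slc4a9 was detected on 0 of the 14 arrays and Slc5a11 on 2, and neither was tested. The 157 were read in 13 lists by substrate, with Slc2a1, Slc5a3, Slc13a4 and Slc38a1 followed most closely. Most genes named were taken by a rule on size and p, and the others were chosen after their values were seen.

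Solute carriers move sugars, amino acids, ions, vitamins and other small molecules across membranes, either down a gradient or coupled to sodium, protons or an exchanged solute. In mid-pregnancy the uterus holds decidua, muscle and the growing implantation sites, and the trophoblast and yolk sac of the conceptus carry maternal nutrients to the embryo through such transporters. Some of these carriers also hold osmolytes such as myo-inositol and betaine inside cells, and others load synaptic or secretory vesicles.

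All samples were uterus of C57BL/6 mice aged 8 weeks. The non-pregnant group had 5 arrays, the group given PBS and taken at day 12 after fertilization had 5, and the group given PC61 and taken at the same day had 4. PC61 is an antibody to CD25 that is used to deplete regulatory T cells, and the series compares treated with PBS-given pregnant mice. Replicates are numbered in the labels with no word on separate animals. The p-values therefore cover the spread among these samples alone, part of which may be technical. Median probe intensity per array was 93.0 to 139, between 16607 and 19729 probes were detected, and between 110 and 149 of the solute carriers were detected. Levels are log2 intensities after background correction and quantile normalization, a change is a difference with an adjusted p under 0.05 in limma, and levels of different probes were not set against each other.

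The 4 PC61 arrays stood apart from each other, which touches every result for that group. The mean level of 8 measured trophoblast markers, of 12 listed, was 4.42 to 4.58 in the non-pregnant group, where each of the 8 was undetected on every array, and 9.16 to 9.51 in the PBS group. On PC61 arrays 1 to 4 it was 4.94, 5.01, 6.36 and 9.64. The 8 measured yolk sac and embryonic erythroid markers, of 9, lay at 12.61 to 12.92 on the PBS arrays and at 12.13, 9.52, 10.26 and 12.92 on the PC61 arrays, and the 4 measured uterine NK markers, of 6, at 10.01 to 10.21 and at 5.94, 10.87, 10.91 and 10.19. The 5 measured decidual markers, of 8, lay at 6.98 to 7.74 on the PBS arrays and at 6.15, 7.67, 7.76 and 7.21 on the PC61 arrays. The 8 smooth muscle markers lay at 10.05 to 10.51 and at 11.54, 12.07, 11.88 and 9.50. PC61 array 4 was therefore near the PBS arrays in the trophoblast, erythroid and NK markers, arrays 2 and 3 were low in conceptus markers, and array 1 was low in trophoblast, NK and decidual markers. In whole tissue, fewer cells of a type and less RNA per cell cannot be told apart, and the part of these markers in the solute carrier results was not tested.

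**Figure D1:**
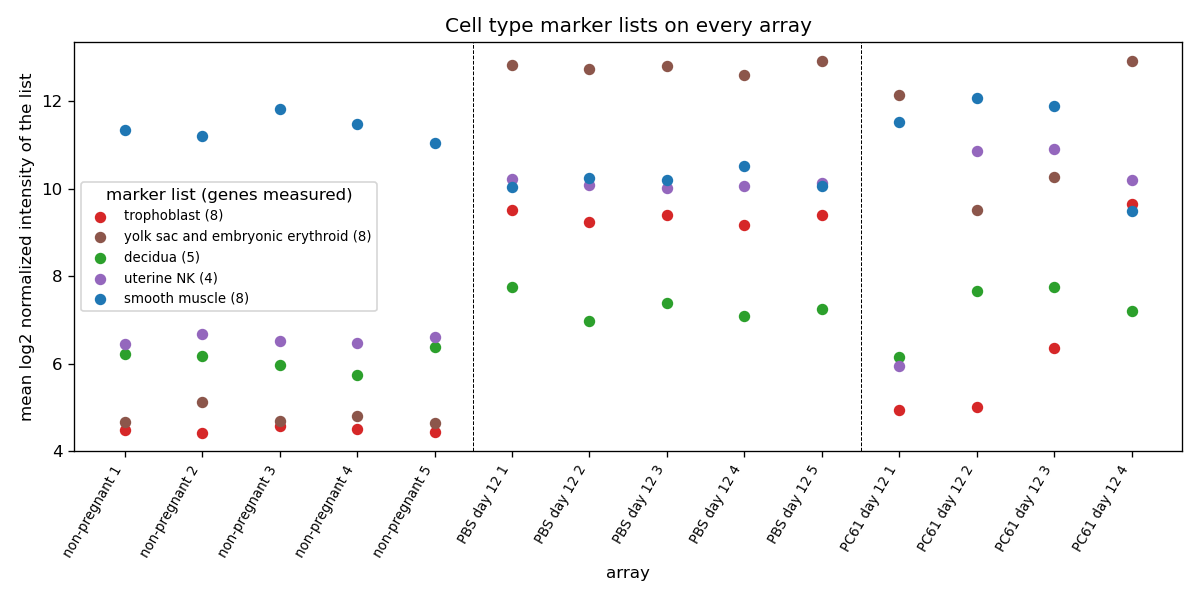
Mean log2 normalized intensity of 5 marker lists (y axis) on each of the 14 arrays (x axis), with the number of measured genes in the legend and dashed lines between the groups. The trophoblast points lie between 9.16 and 9.51 on the 5 PBS arrays, at 4.94 and 5.01 on PC61 arrays 1 and 2, at 6.36 on array 3 and at 9.64 on array 4.

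The start-site windows of 3 of the 4 most closely followed genes are shown, each 300 bases long and running just past the annotated start in RefSeq (GRCm38.p6), because the group differences below turn on their RNA levels. Capitals in the first pair mark ACGTG or GCGTG, the core letters bound by hypoxia-inducible factors, and in the last they mark TGGAAA, the core letters bound by the tonicity factor NFAT5. Both strands were searched, so CACGC in capitals is GCGTG read on the other strand. The windows are chr4:119108495-119108794 on the plus strand, chr16:92058072-92058371 on the plus strand and chr6:35308077-35308376 on the minus strand.
Slc2a1: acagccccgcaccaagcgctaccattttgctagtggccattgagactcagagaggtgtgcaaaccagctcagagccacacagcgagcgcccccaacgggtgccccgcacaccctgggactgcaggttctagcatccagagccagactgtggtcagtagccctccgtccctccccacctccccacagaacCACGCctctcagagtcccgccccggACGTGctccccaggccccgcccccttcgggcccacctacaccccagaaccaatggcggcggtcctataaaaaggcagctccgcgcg
Slc5a3: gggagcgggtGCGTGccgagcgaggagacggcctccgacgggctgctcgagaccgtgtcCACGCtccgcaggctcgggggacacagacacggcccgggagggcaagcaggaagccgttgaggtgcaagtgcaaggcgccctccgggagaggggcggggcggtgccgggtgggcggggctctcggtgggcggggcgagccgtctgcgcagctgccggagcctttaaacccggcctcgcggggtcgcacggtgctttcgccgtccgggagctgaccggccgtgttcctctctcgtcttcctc
Slc13a4: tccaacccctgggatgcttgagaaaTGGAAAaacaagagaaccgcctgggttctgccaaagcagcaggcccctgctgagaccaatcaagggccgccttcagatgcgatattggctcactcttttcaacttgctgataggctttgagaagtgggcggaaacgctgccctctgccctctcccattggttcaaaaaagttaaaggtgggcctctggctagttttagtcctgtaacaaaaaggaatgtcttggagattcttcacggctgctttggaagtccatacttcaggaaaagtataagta
All of these letters were searched in each window. The Slc2a1 window held ACGTG 1 time, GCGTG 1 time and TGGAAA 0 times. The Slc5a3 window held GCGTG 2 times, and ACGTG and TGGAAA 0 times each. The Slc13a4 window held TGGAAA 1 time, and ACGTG and GCGTG 0 times each. Of the 32851 windows of this kind in the table, 19.6% held ACGTG, 32.4% held GCGTG, 43.8% held either and 21.4% held TGGAAA, so each set of letters is common and a match is a description of the sequence only.

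At day 12 of pregnancy the uterus carried more RNA for the glucose carrier Slc2a1, the sulfate carrier Slc13a4 and the betaine carrier Slc6a12. It carried less for the peptide carrier Slc15a2, the cystine carrier Slc7a11 and the zinc importer Slc39a4. Of the 8 zinc and manganese exporters of the Slc30a family 4 rose, and of the 8 neutral amino acid carriers of the Slc38a family 5 rose. These are 50% and 62.5% of small families, picked with their values known, against 22.9% of all genes. Among them Slc30a2, Slc30a3, Slc30a10 and Slc38a8 were undetected on every non-pregnant array. Of the 157 measured genes, 51 rose, 38 fell and 68 did not pass the threshold between PBS and non-pregnant arrays, which is 56.7% called against 46.6% of the 10478 genes tested. The split was 32.5% higher and 24.2% lower, against 22.9% and 23.7% of all genes, and the median log2 difference was 0.08 against -0.03. Groups were free of overlap in 53 genes upward and 33 downward, against 21.1% and 20.1% of all genes. With each array scaled to its median in place of quantile normalization, 52 rose and 18 fell (33.1% of all genes were called). All genes shifted the same way there, with 2269 higher and 1196 lower and a median of 0.16. With genes required to be detected on at least 9 arrays, 33 rose and 32 fell of 127 (26% and 25.2%, against 20.5% and 22.6% of all genes, 43.2% called), so the counts in the 2 directions were nearly equal there. Of the 51 that rose, 20 were detected on 0 of the 5 non-pregnant arrays, and such genes entered the test through the groups where they were bright. Of the 38 that fell, 4 were detected on 0 of the 5 PBS arrays.

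Cell type markers moved between the same groups. The 7 measured markers of endometrial epithelium, of 8, lay at 10.66 to 11.24 on the non-pregnant arrays and at 9.10 to 9.46 on the PBS arrays. Smooth muscle markers lay at 11.04 to 11.82 without pregnancy, above the PBS range given before, and the 2 measured adipocyte markers, of 5, at 7.60 to 10.21 against 4.39 to 5.19. Uterine NK markers, at 6.44 to 6.69, and decidual markers, at 5.74 to 6.39, were lower without pregnancy. Their part in the rises and falls below was not tested.

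**Figure D2:**
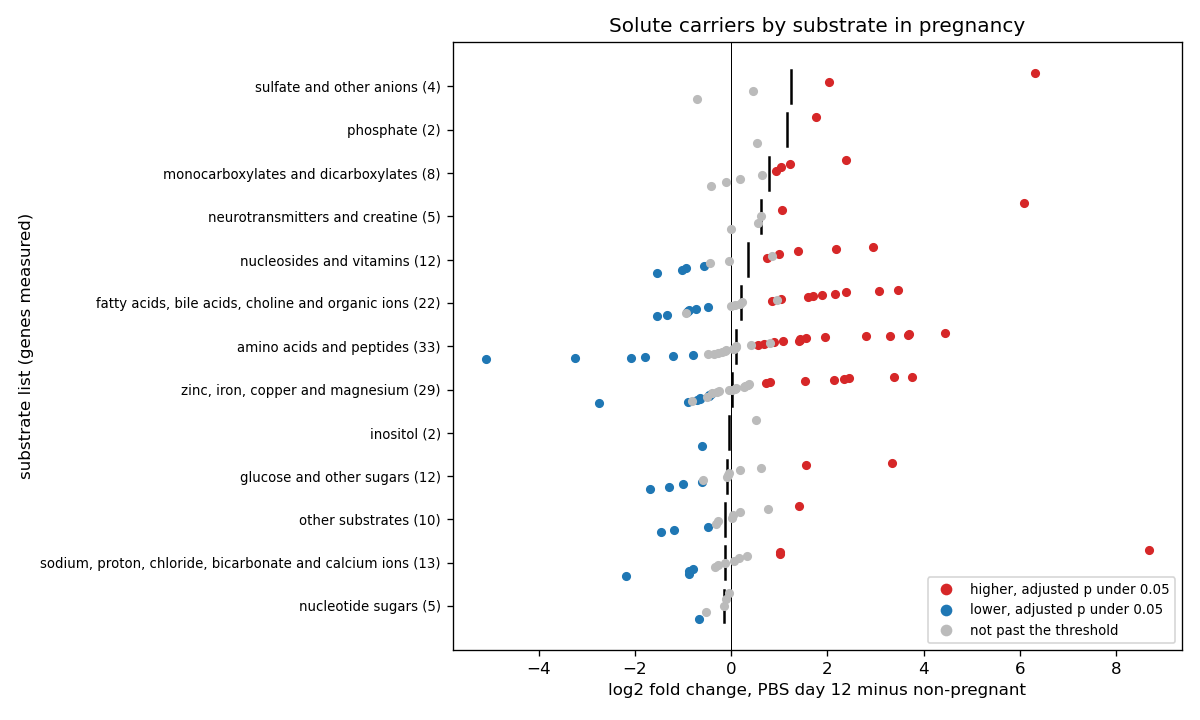
Log2 fold change between PBS and non-pregnant arrays (x axis) of each of the 157 measured solute carriers, in 13 substrate lists (y axis, genes measured in brackets, ordered by their median, drawn as a black bar). Red points rose, blue points fell and grey points did not pass an adjusted p of 0.05; Slc4a1 is the point at 8.68 and Slc15a2 the point at -5.10.

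The sugar list was led by its best known member. Slc2a1 (GLUT1), the facilitative glucose carrier of erythrocytes, barriers and placenta, read 9.71, 9.59, 10.53, 9.96 and 9.15 on the non-pregnant arrays and 13.22, 13.09, 13.19, 13.17 and 12.98 on the PBS arrays. The groups did not overlap. The rise was 10.1-fold (log2 3.34 ± 0.25 SE, adjusted p = 1.28e-07). In the list of 12 glucose and sugar carriers, 2 rose, 4 fell and 6 did not pass the threshold. That is 50% called, against 46.6% of all genes. The other riser was Slc45a4, a member of a proton-coupled sugar carrier family, at log2 1.55 ± 0.26 (adjusted p = 2.69e-04), but 1 of its 3 probes fell while 2 rose, so its direction depends on the probe. The carriers that fell were Slc2a10 (log2 -1.68, adjusted p = 7.21e-04), Slc2a6 (-1.29, 4.00e-04), the Golgi-located sugar carrier Slc50a1 (-1.01, 3.10e-04) and the insulin-regulated Slc2a4 (-0.60, 0.0188). With median scaling the calls of Slc50a1 and Slc2a4 were lost (adjusted p = 0.0659 and 0.222). Slc2a3 (GLUT3), a high-affinity glucose carrier, read 8.25 to 11.44 on the non-pregnant arrays against 10.04 to 10.34 on the PBS arrays, with overlapping groups (adjusted p = 0.293). Within the Slc2a family itself, counted with the inositol carrier Slc2a13, 1 of 7 genes rose and 4 fell. These are 14.3% and 57.1% of a small family, against 22.9% and 23.7% of all genes.

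Of the 2 measured inositol carriers, 0 rose and 1 fell, which is 50% called against 46.6% of all genes. Slc5a3 (SMIT1) takes up myo-inositol with sodium and is known to respond to osmotic stress. It read 4.69, 4.50, 4.73, 4.64 and 4.50 on the non-pregnant arrays, where it was detected on 0 of 5, and 4.93, 5.16, 4.82, 5.29 and 5.43 on the PBS arrays, where it was detected on 2. The groups did not overlap, yet the difference missed the threshold (log2 0.51 ± 0.24 SE, adjusted p = 0.0879). It passed without PC61 array 4 in the fit (adjusted p = 0.00658), since all groups share one estimate of the spread. Slc2a13, the proton-coupled myo-inositol carrier, fell from the range 7.21 to 7.60 to the range 6.67 to 7.04 (log2 -0.60, adjusted p = 0.00384), a call lost with median scaling (adjusted p = 0.302).

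Sulfate and anion carriers held the largest rise of the core genes. Slc13a4, a sodium-sulfate cotransporter known in the mouse placenta, read 4.76, 5.28, 4.95, 5.06 and 4.38 on the non-pregnant arrays and 10.94, 11.17, 11.01, 11.55 and 11.28 on the PBS arrays. It was detected on 1 non-pregnant array and on all 5 PBS arrays, with no overlap. The rise was 79.1-fold (log2 6.31 ± 0.79 SE, adjusted p = 2.39e-05). Slc26a4 (pendrin), an exchanger of chloride, iodide and bicarbonate, rose from the range 4.78 to 5.88 to the range 7.02 to 7.44 (log2 2.04 ± 0.37, adjusted p = 4.57e-04). Slc13a1, the sulfate carrier of kidney and gut, read 4.41 to 4.56 and 4.57 to 5.11 (adjusted p = 0.177) and was detected on 0 and 1 of the 5 arrays. The remaining member, Slc26a7, had an adjusted p of 0.128.

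Amino acid and peptide carriers changed in both directions. Of 33 measured, 14 rose, 6 fell and 13 did not pass the threshold, which is 42.4% and 18.2% against 22.9% and 23.7% of all genes. Among those that rose were 5 of the 8 measured Slc38a genes, the sodium-coupled neutral amino acid carriers, with 0 that fell. Slc38a1 (SNAT1), which takes up glutamine and alanine with sodium, read 5.81, 5.26, 5.21, 5.85 and 5.04 on the non-pregnant arrays and 7.79, 6.64, 8.04, 7.12 and 7.29 on the PBS arrays. The groups did not overlap, and all 3 of its probes rose. The rise was 3.84-fold (log2 1.94 ± 0.29 SE, adjusted p = 1.02e-04). Slc38a4, an imprinted carrier of the same type known in mouse placenta, read 4.30, 4.53, 4.36, 4.74 and 5.07 without pregnancy and 7.08, 7.12, 6.86, 6.93 and 9.03 with it (log2 2.80 ± 0.78, adjusted p = 0.00904). PBS array 5 stood above the other PBS arrays for this gene. Slc38a8, a related carrier, was undetected on every non-pregnant array and read 7.64 to 7.95 on the PBS arrays, at least 6.11-fold higher (adjusted p = 1.66e-04). Slc38a5 and Slc38a7 rose by log2 1.56 and 1.08.

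Others of this list that rose were Slc17a6, Slc32a1, Slc7a9 and Slc36a1. Slc17a6 (VGLUT2) loads glutamate into vesicles, and it read 4.33, 4.48, 5.40, 4.60 and 4.47 on the non-pregnant arrays, undetected on all 5, and 9.28, 9.33, 9.01, 8.92 and 8.96 on the PBS arrays. It was at least 15.1-fold higher (adjusted p = 4.28e-09). Slc32a1, the vesicular carrier of GABA and glycine, was undetected on all 5 non-pregnant arrays and read 7.84, 7.76, 8.26, 8.36 and 7.84 on the PBS arrays, at least 7.11-fold higher (adjusted p = 2.18e-09). Slc7a9, the light chain of the cystine and dibasic amino acid carrier of kidney and gut, was undetected in the non-pregnant group and read 8.01, 8.17, 7.76, 8.57 and 8.23 at day 12, at least 7.8-fold higher (adjusted p = 3.81e-05). The lysosomal proton-coupled carrier Slc36a1 rose at least 2.09-fold (adjusted p = 4.45e-04).

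The carriers that fell in this list were Slc15a2, Slc7a11, Slc1a1, Slc15a3, Slc1a5 and Slc7a4, and relatives of several of them did not. Slc15a2 (PEPT2), which takes up di- and tripeptides with protons, read 9.56, 9.63, 9.99, 9.58 and 9.96 on the non-pregnant arrays and 4.52, 4.64, 4.60, 4.74 and 4.71 on the PBS arrays, where it was undetected on all 5. It was at least 24.8-fold lower in pregnancy (adjusted p = 1.18e-09). Slc7a11 (xCT), which exchanges cystine for glutamate, read 8.17, 9.17, 8.52, 8.42 and 9.92 without pregnancy and 5.71, 6.10, 5.51, 5.54 and 5.09 with it, a fall of 9.52-fold (log2 -3.25 ± 0.29 SE, adjusted p = 7.77e-07). Slc1a1, the neuronal and epithelial glutamate carrier, read 9.65, 10.17, 9.52, 9.53 and 10.05 without pregnancy and 7.12, 7.77, 7.81, 7.98 and 7.79 with it (log2 -2.09 ± 0.21, adjusted p = 2.85e-06). The lysosomal peptide carrier Slc15a3 fell by 3.46-fold, from the range 6.53 to 7.25 to the range 4.97 to 5.25 (adjusted p = 4.23e-04). None of these 4 genes overlapped between the groups. The glutamine carrier Slc1a5 and the orphan Slc7a4 were the other 2 that fell (log2 -0.79 and -1.20), the call of Slc7a4 being lost with median scaling (adjusted p = 0.109). The glial-type glutamate carrier Slc1a3 and the neutral amino acid carrier Slc1a4 rose (log2 1.43 and 0.56, adjusted p = 0.0087 and 0.0145), so the 4 measured Slc1a genes gave 2 in each direction. The lysosomal carrier Slc15a4 was not called (log2 -0.27, adjusted p = 0.203).

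Carboxylate carriers rose or did not pass. In the list of 8, 4 rose and 0 fell, which is 50% called against 46.6% of all genes. Slc13a2, which takes up citrate and other dicarboxylates with sodium, was undetected on every non-pregnant array and read 6.52, 6.77, 7.19, 7.34 and 6.86 on the PBS arrays, at least 3.36-fold higher (adjusted p = 6.38e-04). Its relative Slc13a3 rose by log2 1.21 ± 0.20 (adjusted p = 2.19e-04). Slc16a13 rose from the range 5.71 to 6.24 to the range 6.71 to 7.14 (adjusted p = 5.42e-04), and Slc16a3 (MCT4), which exports lactate, was undetected in the non-pregnant group and rose at least 1.19-fold (adjusted p = 0.00139).

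Among 5 carriers of neurotransmitters and creatine, 2 rose and 0 fell, which is 40% called against 46.6% of all genes. Slc6a12, which takes up betaine and GABA with sodium and chloride and is known as an osmolyte carrier, read 6.28, 5.27, 5.74, 6.21 and 6.00 on the non-pregnant arrays and 12.01, 12.14, 12.04, 12.09 and 11.71 on the PBS arrays. The groups lay far apart, and the rise was 68.5-fold (log2 6.10 ± 1.14 SE, adjusted p = 6.12e-04). The serotonin carrier Slc6a4 was undetected in the non-pregnant group and at least 1.38-fold higher at day 12 (adjusted p = 0.00145). The noradrenaline carrier Slc6a2 read 10.09, 11.09, 7.58, 8.47 and 10.67 on the non-pregnant arrays and 10.48, 10.27, 10.44, 9.96 and 9.86 on the PBS arrays, with overlap (adjusted p = 0.602). Its other kept probe, dimmer and detected on 10 arrays, rose (log2 0.99, adjusted p = 0.0111 in limma over all probes). The call of Slc6a2 therefore depends on the probe.

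Ion carriers held the largest single rise of all 157 genes. Slc4a1, the band 3 anion exchanger of the red cell membrane, read 4.48, 5.23, 4.71, 4.86 and 4.47 on the non-pregnant arrays and 13.33, 13.49, 13.53, 13.56 and 13.27 on the PBS arrays, a rise of 411-fold (log2 8.68 ± 0.63 SE, adjusted p = 1.08e-07). It was detected on 1 of the non-pregnant arrays. The erythroid and yolk sac markers given above were higher in the PBS group (12.61 to 12.92) than in the non-pregnant group (4.65 to 5.12), and their part in this rise was not tested. The potassium-dependent sodium-calcium exchanger Slc24a3, known in uterine tissue, read 10.86, 11.45, 11.09, 10.74 and 11.94 without pregnancy and 8.81, 9.03, 9.10, 9.46 and 8.79 with it, a fall of 4.52-fold (log2 -2.18 ± 0.40, adjusted p = 5.42e-04). In the list of 13, 3 rose and 4 fell, which is 23.1% and 30.8% against 22.9% and 23.7% of all genes. Slc12a7 (1.01) and Slc4a8 (1.01) were up by log2. Slc12a2 (-0.87), Slc9a9 (-0.87) and Slc4a3 (-0.80, not called with median scaling, adjusted p = 0.109) were down by log2. Slc9a9 was detected on 4 of the 14 arrays, the fewest the filter allows. Of the 2 phosphate carriers, Slc34a2, the epithelial sodium-phosphate cotransporter, was undetected in the non-pregnant group, read 5.75, 6.67, 6.05, 6.45 and 7.72 on the PBS arrays and was at least 2.54-fold higher (adjusted p = 2.79e-04). Slc20a1, the other phosphate carrier, overlapped between the groups (adjusted p = 0.355).

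Metal carriers changed in both directions, at shares near those of all genes. Of 29 measured, 8 rose, 8 fell and 13 did not pass, which is 27.6% each way against 22.9% and 23.7%. With median scaling 8 rose and 1, Slc39a4, fell, in a setting where 2269 of all genes rose and 1196 fell. In the Slc30a family, which exports zinc and manganese from the cytosol, 4 of 8 rose and 0 fell. Slc30a2, which loads zinc into vesicles, was undetected on every non-pregnant array and read 8.21, 8.42, 8.07, 8.67 and 8.46 on the PBS arrays, at least 9.08-fold higher (adjusted p = 1.77e-05). Slc30a3, the synaptic vesicle zinc carrier, was also undetected in the non-pregnant group and read 6.27, 7.11, 6.77, 7.13 and 6.87 at day 12, at least 3.13-fold higher (adjusted p = 1.68e-07). The manganese exporter Slc30a10 was at least 2.72-fold higher (adjusted p = 2.61e-04), and Slc30a1, the zinc exporter of the plasma membrane, rose by 4.4-fold from the range 6.11 to 6.89 to the range 8.08 to 9.09 (adjusted p = 8.13e-04).

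In the Slc39a family of importers, 3 of 13 rose and 4 fell (23.1% and 30.8%, against 22.9% and 23.7% of all genes). With median scaling 3 rose and 1 fell. Slc39a4 (ZIP4), the zinc importer of the gut and visceral yolk sac in mice, read 11.39, 12.91, 11.72, 11.34 and 12.03 on the non-pregnant arrays and 8.85, 9.08, 9.22, 9.62 and 8.91 on the PBS arrays, with no overlap. It fell by 6.69-fold (log2 -2.74 ± 0.29 SE, adjusted p = 4.88e-06), and both of its probes fell. Slc39a5, another zinc importer, was undetected in the non-pregnant group and read 7.34, 7.91, 7.51, 8.25 and 8.02 at day 12, at least 6.15-fold higher (adjusted p = 9.56e-05), with all 3 probes higher. Slc39a14, which carries zinc, manganese and iron, rose at least 2.14-fold (adjusted p = 3.09e-04). The iron importer Slc11a2 (DMT1) rose from the range 7.43 to 8.00 to the range 8.39 to 8.50 (log2 0.80, adjusted p = 2.75e-04). Of its 3 probes 2 rose, and the other, detected on all 14 arrays, was not called (log2 0.06, adjusted p = 0.824). The iron exporter Slc40a1 (ferroportin) overlapped, at 10.50 to 12.22 and 11.50 to 11.82 (adjusted p = 0.456).

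Among 12 carriers of nucleosides and vitamins, 5 rose and 4 fell, which is 41.7% and 33.3% against 22.9% and 23.7% of all genes. Slc29a4, which carries monoamines and nucleosides, read 5.35, 4.97, 4.66, 5.51 and 5.45 without pregnancy and 7.85, 8.27, 8.11, 8.50 and 7.98 with it, a rise of 7.74-fold (log2 2.95 ± 0.26 SE, adjusted p = 7.65e-07). The thiamine carrier Slc19a2 rose from the range 7.37 to 8.21 to the range 9.11 to 9.45 (log2 1.39 ± 0.20, adjusted p = 8.05e-05), while the lysosomal carrier Slc46a3 fell from the range 8.01 to 8.82 to the range 7.20 to 7.58 (log2 -1.02 ± 0.17, adjusted p = 2.10e-04). Each of these 3 genes was clear of overlap between the groups.

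Among 22 carriers of fatty acids, bile acids, choline and organic ions, 9 rose and 7 fell. That is 40.9% and 31.8%, against 22.9% and 23.7% of all genes. Slc47a1, which exports organic cations against protons, read 4.95, 5.41, 5.68, 4.74 and 4.91 on the non-pregnant arrays and 8.11, 8.67, 8.57, 8.88 and 8.75 on the PBS arrays, a rise of 11-fold (log2 3.46 ± 0.22 SE, adjusted p = 2.78e-08). Slc27a2, which takes up and activates very long chain fatty acids, read 6.12, 7.42, 5.98, 5.26 and 6.59 without pregnancy and 9.49, 9.12, 9.56, 9.13 and 9.43 with it, a rise of 8.41-fold (adjusted p = 3.10e-06). Slc22a18, an imprinted organic cation carrier, rose from the range 7.08 to 7.78 to the range 9.40 to 9.74 (adjusted p = 0.00176), and the carnitine carrier Slc22a21 fell from the range 5.78 to 6.59 to the range 5.10 to 5.45 (adjusted p = 5.50e-04). All 4 measured Slc44a genes, the choline carrier family, changed, against 46.6% of all genes, in a small family picked with its values known. Slc44a2 rose (log2 1.03) and Slc44a4, Slc44a3 and Slc44a1 fell (log2 -1.54, -1.34 and -0.90). The call of Slc44a1 was lost with median scaling (adjusted p = 0.203), and that of Slc44a2 when the mean of all probes stood for the gene (adjusted p = 0.1). Slc44a4 had the lowest adjusted p of the 4, at 3.46e-04.

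In the remaining 2 lists 20% and 40% of the genes were called, against 46.6% of all genes. Both lists are too small to be set apart from that share. Of 5 nucleotide sugar carriers of the Golgi, 0 rose, and Slc35a5 fell (log2 -0.67, adjusted p = 0.0193) with overlapping groups, while Slc35a3 had an adjusted p of 0.084. Of 10 carriers of other substrates, 1 rose and 3 fell. The urea carrier Slc14a1 read 7.01, 7.05, 6.88, 7.30 and 6.97 on the non-pregnant arrays and 5.40, 5.37, 6.19, 5.31 and 5.65 on the PBS arrays (log2 -1.46 ± 0.25, adjusted p = 3.19e-04), and all 3 of its probes fell. Slc37a2, a sugar phosphate exchanger of the endoplasmic reticulum, fell from the range 5.87 to 7.12 to the range 4.97 to 5.48 (log2 -1.18 ± 0.24, adjusted p = 0.00119).

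Between PC61 and PBS arrays, which asks what CD25 antibody treatment changed at day 12, PC61 arrays 1 to 3 were low in the sulfate carrier Slc13a4 and the amino acid carriers Slc38a1, Slc38a4 and Slc38a8, and high in the inositol carrier Slc5a3. PC61 array 4 was within the PBS range for Slc13a4, Slc38a1 and Slc5a3 and above it for Slc38a4 and Slc38a8. With all 4 arrays, limma called 0 of the 157 genes and 0% of the 10478 genes. At an unadjusted p under 0.05 there were 40 of the 157 (25.5%) against 15.5% of all genes. Without PC61 array 4, 46 of the 157 were called (29.3%), 19 higher and 27 lower, against 14.6% of all genes. Array 4 was the PC61 array nearest the PBS arrays, with 61.8% of the carriers within their range. Leaving it out tends to enlarge the differences, and it was singled out on these same data. The values without array 4 below are therefore a description only. Without PC61 array 1, 0 of the 156 tested were called, against 0.0191% of all genes. Without array 2 or without array 3 it was 0 of 156, against 0% of all genes. With each array scaled to its median, 11 were called, all lower, against 2.89% of all genes, whose 303 calls were all lower too. The median difference of all genes moved to -0.30 there. This comparison shares the PBS arrays with the one above, so the values of both are given side by side and no overlap between them is drawn.

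**Figure D3:**
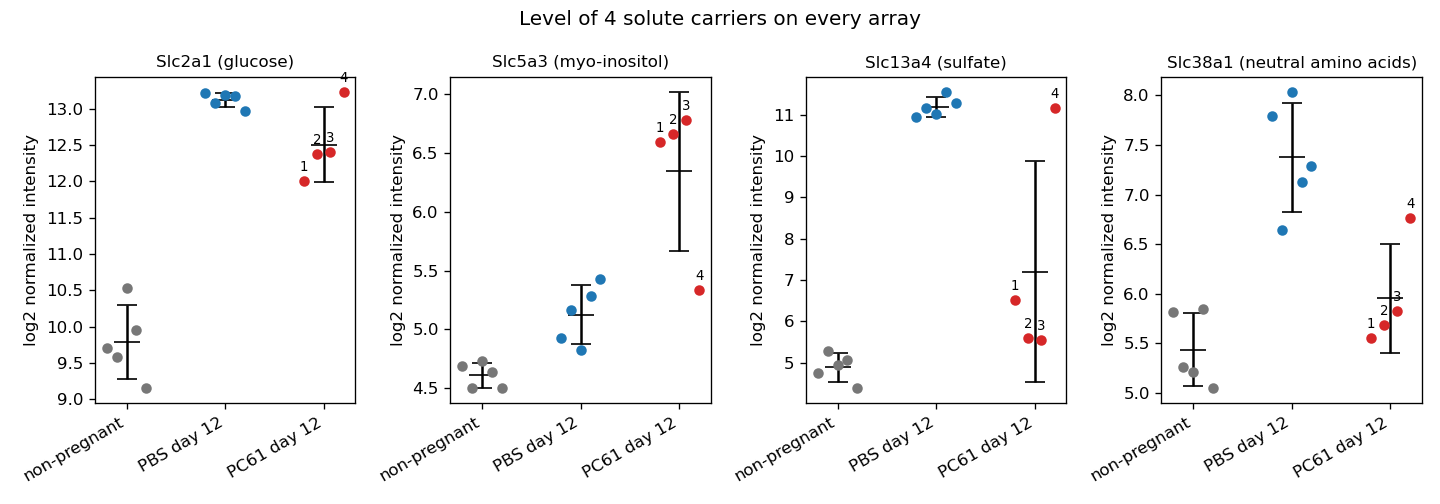
Log2 normalized intensity (y axis, a separate range in each panel) of Slc2a1, Slc5a3, Slc13a4 and Slc38a1 on each of the 14 arrays by group (x axis), with the group mean and SD as black bars and the PC61 arrays numbered. For Slc13a4, PC61 arrays 1 to 3 lie at 6.52, 5.59 and 5.54 and array 4 at 11.15, within the 5 PBS arrays; for Slc5a3, arrays 1 to 3 lie above every PBS array.

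The sulfate carrier Slc13a4 read 6.52, 5.59, 5.54 and 11.15 on PC61 arrays 1 to 4, while the PBS group spanned 10.94 to 11.55. Arrays 1 to 3 were all below the PBS range and array 4 was within it. The difference of the means was log2 -3.99 ± 0.84 SE and was not called (adjusted p = 0.154). Without array 4 it was log2 -5.32 (adjusted p = 1.64e-08), the lowest adjusted p among the 46. The trophoblast markers, at 4.94, 5.01, 6.36 and 9.64 on these arrays, moved with it, and their part was not tested.

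The inositol carrier Slc5a3 read 6.59, 6.66, 6.78 and 5.34 on the PC61 arrays, against 4.82 to 5.43 on the PBS arrays. It was high on arrays 1 to 3 and within the PBS range on array 4. With 4 arrays the difference was log2 1.22 ± 0.25 SE (adjusted p = 0.154), and without array 4 it was 1.57 (adjusted p = 1.83e-05). It was detected on all 4 PC61 arrays, and each of them was above the non-pregnant range of 4.50 to 4.73. Slc13a1, the other sulfate carrier, ran the same way as Slc5a3 at 5.86, 6.37, 6.21 and 4.61 in the PC61 group against 4.57 to 5.11, with log2 0.84 (adjusted p = 0.195) and without array 4 log2 1.24 (adjusted p = 1.46e-04).

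Among the 8 Slc38a carriers, Slc38a1, Slc38a4 and Slc38a8 were below the PBS range on each of the first 3 arrays, and the other 5 were not. Slc38a1 read 5.55, 5.69, 5.82 and 6.76 in the PC61 group against 6.64 to 8.04 on the PBS arrays (log2 -1.42 ± 0.31 SE, adjusted p = 0.154), and without array 4 log2 -1.70 (adjusted p = 0.0014). Arrays 1 to 3 were below every PBS array. Slc38a4 read 4.66, 4.41, 4.87 and 9.52 against 6.86 to 9.03, so that array 4 was above and the other 3 were below the PBS range (adjusted p = 0.384, and 3.76e-04 without array 4). Slc38a8 read 4.47, 5.06, 4.67 and 8.25 against 7.64 to 7.95 (adjusted p = 0.154, and 1.97e-08 without array 4). The lysosomal carriers differed in direction. Slc38a9, an arginine-sensing carrier, read 7.15, 7.72, 7.43 and 6.91 against 6.43 to 7.04 (adjusted p = 0.184, and 0.0159 without array 4). Slc36a1 read 4.70, 5.48, 4.41 and 5.88 against 6.00 to 6.55, with every PC61 array below every PBS array (log2 -1.13 ± 0.27, adjusted p = 0.154, and 0.00166 without array 4). The lysosomal peptide carrier Slc15a3 read 5.34, 6.76, 7.31 and 5.39 against 4.97 to 5.25, with every PC61 array above every PBS array (log2 1.06 ± 0.34, adjusted p = 0.189, and 0.0148 without array 4). Only these last 2 and the fatty acid carrier Slc27a4 did not overlap between PC61 and PBS arrays, which is 3 of 157 genes against 1.81% of all genes.

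The glucose carrier Slc2a1 read 12.01, 12.38, 12.40 and 13.23 in the PC61 group against 12.98 to 13.22 on the PBS arrays. Arrays 1 to 3 were below and array 4 just above the PBS range, with all 4 above every non-pregnant array. The difference was log2 -0.62 ± 0.26 SE (adjusted p = 0.282), and -0.86 without array 4 (adjusted p = 0.0283). The organic cation carrier Slc22a18 read 6.37, 6.64, 7.15 and 9.71 against 9.40 to 9.74 (log2 -2.11, adjusted p = 0.154, and 7.76e-07 without array 4). Slc39a14, the zinc, manganese and iron carrier, read 4.54, 4.63, 5.05 and 6.24 against 5.92 to 6.56 (log2 -1.17, adjusted p = 0.154, and 4.32e-05 without array 4). Slc22a21, the carnitine carrier, read 5.75, 5.73, 5.88 and 5.38 against 5.10 to 5.45 (log2 0.44, adjusted p = 0.245) and stayed uncalled without array 4 (adjusted p = 0.0523).

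**Figure D4:**
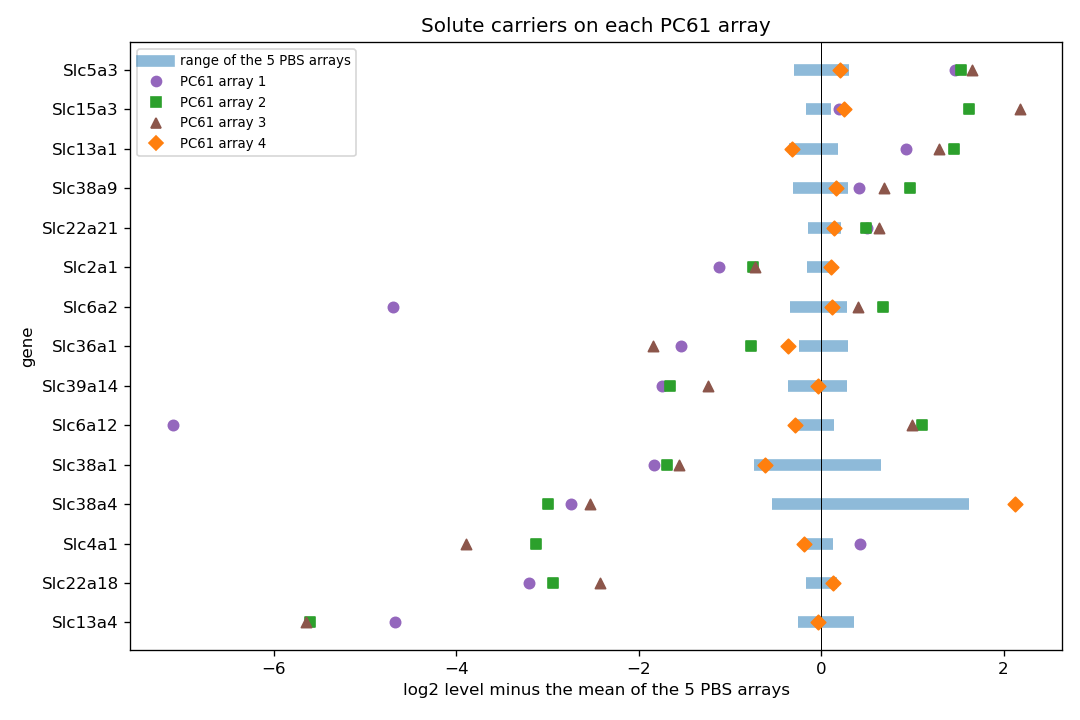
Level of 15 solute carriers on each PC61 array minus the mean of the 5 PBS arrays, in log2 units (x axis), by gene (y axis, ordered by the mean difference). Blue bars span the 5 PBS arrays; array 4 (orange) lies in or near the bar for every gene except Slc38a4, while arrays 1 to 3 lie far below it for Slc13a4 and above it for Slc5a3.

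Leaving out array 4, 29.3% of the carriers and 14.6% of all genes were called, and the lists are too small to be set apart from these shares. The calls were 3 higher and 5 lower among 33 amino acid and peptide carriers, and 4 higher and 3 lower among 29 metal carriers. They were 2 higher and 4 lower among 22 carriers of fatty acids and organic ions, and 0 higher and 4 lower among 12 carriers of nucleosides and vitamins. The 8 carboxylate carriers gave 2 higher and 3 lower, with Slc13a2 up by log2 1.96 (adjusted p = 2.18e-05), and the 4 of the anion list 2 higher and 1 lower. The lower calls included Slc7a9 (log2 -2.59), Slc30a1 (-1.86), Slc39a5 (-1.82) and Slc27a6 (-1.70), and the higher ones Slc5a8 (1.56), Slc24a3 (1.47) and Slc17a4 (1.67). A fit that weighted arrays by their own scatter, and gave PC61 arrays 1 and 4 the lowest weights (0.166 and 0.173, against 2.11 and 1.39 for arrays 2 and 3), called 82 of the 157 genes against 38.4% of all genes, 43 higher and 39 lower. All 46 genes called without array 4 were among these 82 (56.1% of them) in the same direction. The weighted fit gave array 4 little weight and shared the other arrays, so this overlap adds no separate support.

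The PC61 arrays differed widely among themselves. Of the 157 genes, 32 had an SD above 1 log2 unit among the 4 PC61 arrays (20.4%, against 11.2% of the 10478 genes), compared with 0 among the PBS arrays and 4 among the non-pregnant arrays. The median SD was 0.53 on PC61, 0.24 on PBS and 0.31 on non-pregnant arrays. On PC61 arrays 1 to 4, 48, 41, 34 and 97 of the 157 genes lay within the range of the 5 PBS arrays (30.6%, 26.1%, 21.7% and 61.8%), against 42.5%, 37.1%, 35.9% and 65.1% of all genes. Arrays 1 to 3 below the PBS range with array 4 within it was the most frequent arrangement, with 16 genes (10.2%, against 4.42% of all genes), among them Slc13a4, Slc38a1, Slc22a18, Slc39a14 and Slc40a1.

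Another arrangement set array 1 apart. In 11 genes (7.01%, against 3.75% of all genes) array 1 lay below, arrays 2 and 3 above and array 4 within the PBS range, and 4 of these were Slc6a carriers (Slc6a2, Slc6a6, Slc6a8 and Slc6a12). The betaine carrier Slc6a12 had the largest PC61 spread of all, at 4.89, 13.11, 13 and 11.71 against 11.71 to 12.14 in the PBS group. Array 1 lay below the non-pregnant arrays (5.27 to 6.28), and arrays 2 and 3 were above every PBS array. The noradrenaline carrier Slc6a2 read 5.51, 10.88, 10.61 and 10.32 against 9.86 to 10.48, again with array 1 far below. The means differed by log2 -1.32 and -0.87 (adjusted p = 0.615 and 0.682), and without array 1 by 0.60 and 0.40, so the direction of both rested on array 1. The uterine NK markers, at 5.94 on array 1 and 10.19 to 10.91 on arrays 2 to 4, and the decidual markers moved with these genes, and their part was not tested. The red cell exchanger Slc4a1 read 13.86, 10.31, 9.54 and 13.25 against 13.27 to 13.56 (log2 -1.70, adjusted p = 0.258, and 0.0404 without array 4), low on arrays 2 and 3 as were the erythroid markers given above.

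Against the non-pregnant uterus, the PC61 arrays had more RNA for the glucose carrier Slc2a1, the inositol carrier Slc5a3, both vesicular carriers Slc17a6 and Slc32a1 and the dicarboxylate carrier Slc13a2, and less for Slc15a2, Slc39a4 and Slc7a11. Slc13a4 and Slc38a1 did not pass the threshold. Of the 157 genes, 34 rose, 22 fell and 101 did not pass (35.7% called, against 28.3% of all genes), with 21.7% higher and 14% lower against 13.7% and 14.6%. Of the 34 that rose, 16 were undetected on every non-pregnant array. Without PC61 array 4 the counts were 37 and 17, against 24.8% of all genes called, and without array 1 they were 39 and 20, against 29.6%. This comparison shares the PC61 arrays with the second and the non-pregnant arrays with the first.

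The largest rises were Slc4a1 (127-fold, log2 6.99 ± 0.67 SE, adjusted p = 2.88e-06) and Slc17a6, which read 9.06, 10.11, 8.93 and 9.31 on the PC61 arrays and was at least 18-fold higher (adjusted p = 5.77e-09). The dicarboxylate carrier Slc13a2 read 8.49, 9.17, 9.01 and 6.02 and was at least 7.94-fold higher (adjusted p = 5.97e-05). Slc32a1 read 7.94, 7.79, 7.12 and 8.11, at least 5.88-fold higher (adjusted p = 1.18e-08). Both vesicular carriers were above every non-pregnant array on each of the 4 PC61 arrays. Slc47a1 read 7.76, 7.96, 8.20 and 8.66 (log2 3.01, adjusted p = 2.82e-07), Slc27a2 8.96, 9.41, 9.71 and 9.0 (log2 2.99, adjusted p = 1.07e-05) and Slc29a4 8.76, 7.88, 7.19 and 8.19 (log2 2.81, adjusted p = 3.33e-06). Each of these 3 was clear of the non-pregnant range on all 4 arrays. Slc30a2 was at 5.22, 7.92, 8.12 and 8.58, at least 4.84-fold higher with array 1 undetected (adjusted p = 5.36e-04), and Slc30a3 at 7.58, 6.90, 6.95 and 6.84, at least 3.68-fold higher (adjusted p = 1.53e-07).

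Of the core genes, Slc2a1 rose by 6.59-fold (log2 2.72 ± 0.26, adjusted p = 3.09e-06) and Slc5a3 by at least 2.23-fold (adjusted p = 1.42e-04), and Slc5a3 was above the non-pregnant range on all 4 PC61 arrays. Slc13a4 was not called (log2 2.32 ± 0.84, adjusted p = 0.0523), although every PC61 array lay above every non-pregnant array. Without array 4 its difference was smaller and past the threshold (log2 1.01, adjusted p = 0.0103). Slc38a1 was not called (log2 0.52 ± 0.31, adjusted p = 0.229).

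The falls below are given beside the epithelial markers, at 8.32 to 9.45 on the PC61 arrays, and the adipocyte markers, at 4.40 to 5.22, both below the non-pregnant ranges given above, and their part was not tested. Slc15a2 read 4.59, 5.80, 5.85 and 4.58 in the PC61 group against 9.56 to 9.99 in the non-pregnant group, a fall of 23.2-fold (adjusted p = 8.78e-09), with arrays 2 and 3 detected and arrays 1 and 4 not. Slc39a4 read 8.25, 8.27, 8.94 and 9.15 (log2 -3.22, adjusted p = 2.50e-06) and Slc7a11 6.19, 6.16, 5.96 and 6.00 (log2 -2.76, adjusted p = 1.07e-05). Slc1a1 read 7.61, 8.30, 8.26 and 7.67 (log2 -1.83, adjusted p = 2.80e-05). The urea carrier Slc14a1 (-1.81), the choline carrier Slc44a4 (-1.65) and the lysosomal carrier Slc46a3 (-1.14) fell as well on the log2 scale. Slc24a3, the calcium exchanger, read 10.25, 10.67, 10.59 and 8.16 against 10.74 to 11.94, and its fall (log2 -1.30, adjusted p = 0.0343) was lost without array 4 (log2 -0.71, adjusted p = 0.0571).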

How the data were processed

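Uterine RNA of 14 samples in 3 groups was hybridised to Illumina BeadChips of 45281 probes. The deposited table gives, per the file headers, one average intensity and one detection p-value per probe on every array, not normalized between arrays. The authors' deposited matrix holds log2 values of 16948 of these probes, from 6.51 to 15.06 with column medians of 7.96 to 7.99. Larger values mean more signal and genes are not centred, but its software, background step, exact normalization and choice of probes stay unknown, and it served as an alternative.

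From the intensities, limma 3.58.1 in R 4.3.3 (neqc, background inferred from detection p-values, offset 16, quantile normalization, log2) gave the levels used. Kept were 20967 probes whose detection p was under 0.01 on 4 or more arrays. Symbols came from the platform annotation, brought up to date through Entrez identifiers (15463 probes matched, 0 symbols changed); 15469 probes carried 1 symbol, and the other 29812, of which 5 carried several, stayed without a name. The brightest named probe stood for each of 10478 genes. Of the 157 carriers, 42 had several kept probes: for pregnancy all probes were called alike in 16, some but not all in 8 and none in 18, and only Slc45a4 had calls in opposite directions.

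Differences were fitted with lmFit and eBayes over all genes and the 3 groups (11 residual and 3.36 prior degrees of freedom, two-sided, Benjamini-Hochberg, called under 0.05). Where a group had no detected array, the fold is a bound, the brighter mean over the dimmer group's mean of the higher of its own value and the lowest detected value on each array. Precision is limited by how many arrays there are.

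The members, lists and tests were chosen with earlier results of these data known. Named by rule were the core 4; per comparison the 8 largest rises and 8 largest falls among called, non-overlapping members, or the 5 of lowest p in each direction where fewer than 5 were called; up to 2 of lowest p per list for pregnancy; and the 5 largest PC61 SDs, 45 genes in all. Chosen after their values were seen were Slc2a3, Slc2a4, Slc2a6, Slc50a1, Slc26a7, Slc38a5, Slc38a7, Slc38a8, Slc1a3, Slc1a4, Slc1a5, Slc15a4, Slc7a4, Slc16a3, Slc12a2, Slc12a7, Slc4a3, Slc4a8, Slc9a9, Slc30a1, Slc30a10, Slc39a5, Slc11a2, Slc40a1, Slc44a1, Slc44a2, Slc44a3, Slc27a4, Slc27a6, Slc5a8, Slc17a4, Slc6a6 and Slc6a8, besides the 2 untested genes. Normalization, background, source of values, filter, probe choice, weights, variance model, samples in the fit, replicate block and left-out arrays were varied.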

Additional observations from a re-analysis of the deposited data

Results flagged for a closer look

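Among the 45 named genes in 3 groups, 12 of 135 sets of arrays had 1 array far from the rest of its group by Dixon's test. Chance flags about 5% of sets when genes are not chosen by their values. The 45 genes were chosen from these same values, 5 of them for a large PC61 SD, and they share arrays. The 5% is therefore no measure for them, and the flags are a description. Of the 12 flagged sets, 7 were in the PC61 group, 4 of them on array 4 and 3 on array 1, with 2 in the non-pregnant and 3 in the PBS group.

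On PC61 array 4, the neutral amino acid carrier Slc38a4 stood highest at 9.52 and Slc45a4 highest at 11.05, while the calcium exchanger Slc24a3 stood lowest at 8.16 and the inositol carrier Slc5a3 lowest at 5.34. On this array the trophoblast markers were at 9.64, against 4.94 to 6.36 on the other PC61 arrays, and their part was not tested.

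On PC61 array 1, the betaine carrier Slc6a12 stood lowest at 4.89 and the noradrenaline carrier Slc6a2 lowest at 5.51, while the vesicular zinc carrier Slc30a3 stood highest at 7.58. The uterine NK markers were at 5.94 on this array, against 10.19 to 10.91 on the others, and their part was not tested.

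In the PBS group, Slc38a4 stood highest on array 5 at 9.03, and array 1 was highest for Slc16a13 at 7.14 and lowest for the glutamate carrier Slc1a1 at 7.12. On non-pregnant array 3, Slc17a6 stood highest at 5.40 and the phosphate carrier Slc34a2 highest at 5.38, both undetected there.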

How the results depend on the processing

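The count of carriers called between PBS and non-pregnant arrays was 89 in the main analysis. It was 65 to 108 over the other settings and 80 to 95 with 1 array left out. Of all genes, 46.6% were called in the main analysis, 43.2% at the count of 65 and 57.9% at 108. The share was 42.5% at 80 and 50.1% at 95, so all genes moved with the carriers. Median scaling gave 70, of which 74.3% were higher against 57.3% in the main analysis. All genes shifted the same way, with 2269 higher and 1196 lower, against 2399 and 2487 in the main analysis. Between PC61 and non-pregnant arrays the main count of 56 became 39 to 77, and 44 to 59 with 1 array left out. Of all genes, 28.3% were called in the main analysis and 39.4% at the count of 77. At 39 the share was 17.1% with median scaling and 25.7% with detection on at least 9 arrays. It was 23.1% at 44 and 29.6% at 59. Between PC61 and PBS arrays the main count was 0. It was 11 with median scaling, all lower, where the median of all genes moved to -0.30. The count was 82 with array weights (38.4% of all genes called), and 0 to 46 with 1 array left out. The 46 came without PC61 array 4, where 14.6% of all genes were called. The direction of Slc6a12 in that comparison turned with array weights (log2 0.65), and ranged from -2.13 to 0.60 with 1 array left out, positive without PC61 array 1. Slc6a2 turned likewise (0.31 with weights, -1.39 to 0.40 with 1 array left out). Both were far lower on array 1 than on the other PC61 arrays. The named genes were mostly picked for their values in these same data, so the share that kept a call is a description only. Between PC61 and PBS, where 0 were called, a value kept is a difference that stayed uncalled. Of the values for genes named in each comparison (71, 24 and 21 genes), 1637 of 1674 kept their call and direction for PBS against non-pregnant, 508 of 563 for PC61 against PBS and 491 of 501 for PC61 against non-pregnant. Those that did not, besides Slc6a12 and Slc6a2, were 16 calls gained (Slc5a3, Slc13a1, Slc15a4, Slc26a7, Slc2a3 and Slc35a3) and 21 lost (Slc2a13, Slc2a4, Slc35a5, Slc38a4, Slc44a1, Slc44a2, Slc4a3, Slc50a1 and Slc7a4) in the first, 51 gained in the second, and 3 gained (Slc13a4) and 7 lost (Slc24a3) in the last. Slc38a4 was lost only with the authors' matrix values (adjusted p = 0.0519), and Slc7a4 with each of 5 arrays left out (0.0502 to 0.0586). The replicate block gave 86, 0 and 54 calls, against 45.5%, 0% and 25% of all genes. Among the named genes it changed the call of only Slc24a3 (PC61 against non-pregnant, adjusted p = 0.0608). Deviations of same-numbered samples correlated at -0.17 to 0.33 in 13 pairs, with 4 above 0.1. Differently numbered samples of different groups correlated at -0.24 to 0.35. These values cannot decide whether the numbers pair the samples, and the labels do not say what the numbers stand for. Probes near background limit the folds, since 22 of the 157 carriers were detected on 0 non-pregnant arrays.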
